A study of Mus musculus with 2 samples.

Results

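The tumour necrosis factor (TNF) superfamily was followed on 2 microarrays, 1 of dendritic cells and 1 of eosinophils from the mouse small intestine. Genes were taken by name alone: every gene whose symbol starts with Tnfrsf (receptors) or Tnfsf (ligands), the signalling adaptors Traf1 to Traf7, and Tnf, Lta, Ltb, Fas, Fasl, Cd27, Cd70, Tradd, Fadd and Ripk1, with Cd40 left out. This gave 41 of the 12393 genes on the arrays, read by 60 probe sets. Ripk1, Traf3, Tnfrsf26, Tnfsf12, Tnfsf13, Tnfsf15 and Tnfsf18 had no probe set annotated to a single gene and were not analysed here.

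Both populations came from the small intestinal lamina propria, the tissue under the gut epithelium, of 8-week-old C57BL/6 mice, were sorted by flow cytometry and had not been stimulated. The dendritic cells were CD11c+MHCII+ and the eosinophils CD11b+CD11c(int)MHCII-SiglecF+. The labels do not say how many animals went into a sort. Each population has a single array and hence no replicate error, so no test was made, and each difference describes these 2 arrays rather than the populations. In sorted bulk RNA, fewer cells that express a gene and less of its RNA per cell cannot be told apart.

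TNF superfamily ligands are mostly trimeric membrane proteins, some of which are shed, and each binds 1 or more receptors of the matching receptor family. Receptors with a death domain recruit Tradd, Fadd and Ripk1 and can lead to cell death, whereas most other receptors bind TRAF proteins, which carry the signal to NF-kappaB and MAP kinases. In the gut, lymphotoxins shape lymphoid tissue, TNF drives inflammation, and the B cell factors BAFF (Tnfsf13b) and APRIL (Tnfsf13), which myeloid cells including dendritic cells and eosinophils can make, sustain antibody-secreting cells.

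A signal was taken as measured where it reached 134.7 units, the pooled median signal of both arrays, used here as a floor. A ratio with 1 array under the floor is a lower bound and is written "at least". Genes under the floor on both arrays have no ratio. Among 44 genes of sperm, lens, hair, retina and other tissues not sampled here, the 95th percentile was 205.6 units, so a signal between 134.7 and 205.6 units may be background. Differences are log2 eosinophil minus log2 dendritic cell signal, so a negative value means brighter in dendritic cells.

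Of the 41 genes, 25 were measured: 10 on both arrays, 10 on the dendritic cell array only and 5 on the eosinophil array only. The dendritic cell array showed 48.8% of the 41 above the floor and the eosinophil array 36.6%, beside 51.3% and 56.7% of all genes. At least 4-fold brighter in dendritic cells were 5 of the 25 (20%), Traf1, Tnfrsf13c, Tnfrsf1b, Tnfrsf21 and Tnfsf9, where the share of all 7994 measured genes was 5.35%. At least 4-fold brighter in eosinophils was 1 of the 25 (4%), Tnfrsf13b, close to the 5.35% of all measured genes. At 2-fold the counts were 8 (32%) for dendritic cells, against 15.5% of all measured genes, and 2 (8%) for eosinophils, against 19.0%. The median difference of the 25, bounds included, was -0.14, and that of all measured genes was 0.16. For 10 of the 25, every signal above the floor lay in the background range. Traf7, the gene at the median, is 1 of them and its difference is a lower bound. On the scale of the hybridisation spike controls, 2.06-fold brighter on the eosinophil array, the all-gene median was -0.63 and that of the family -1.02.

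**Figure D1:**
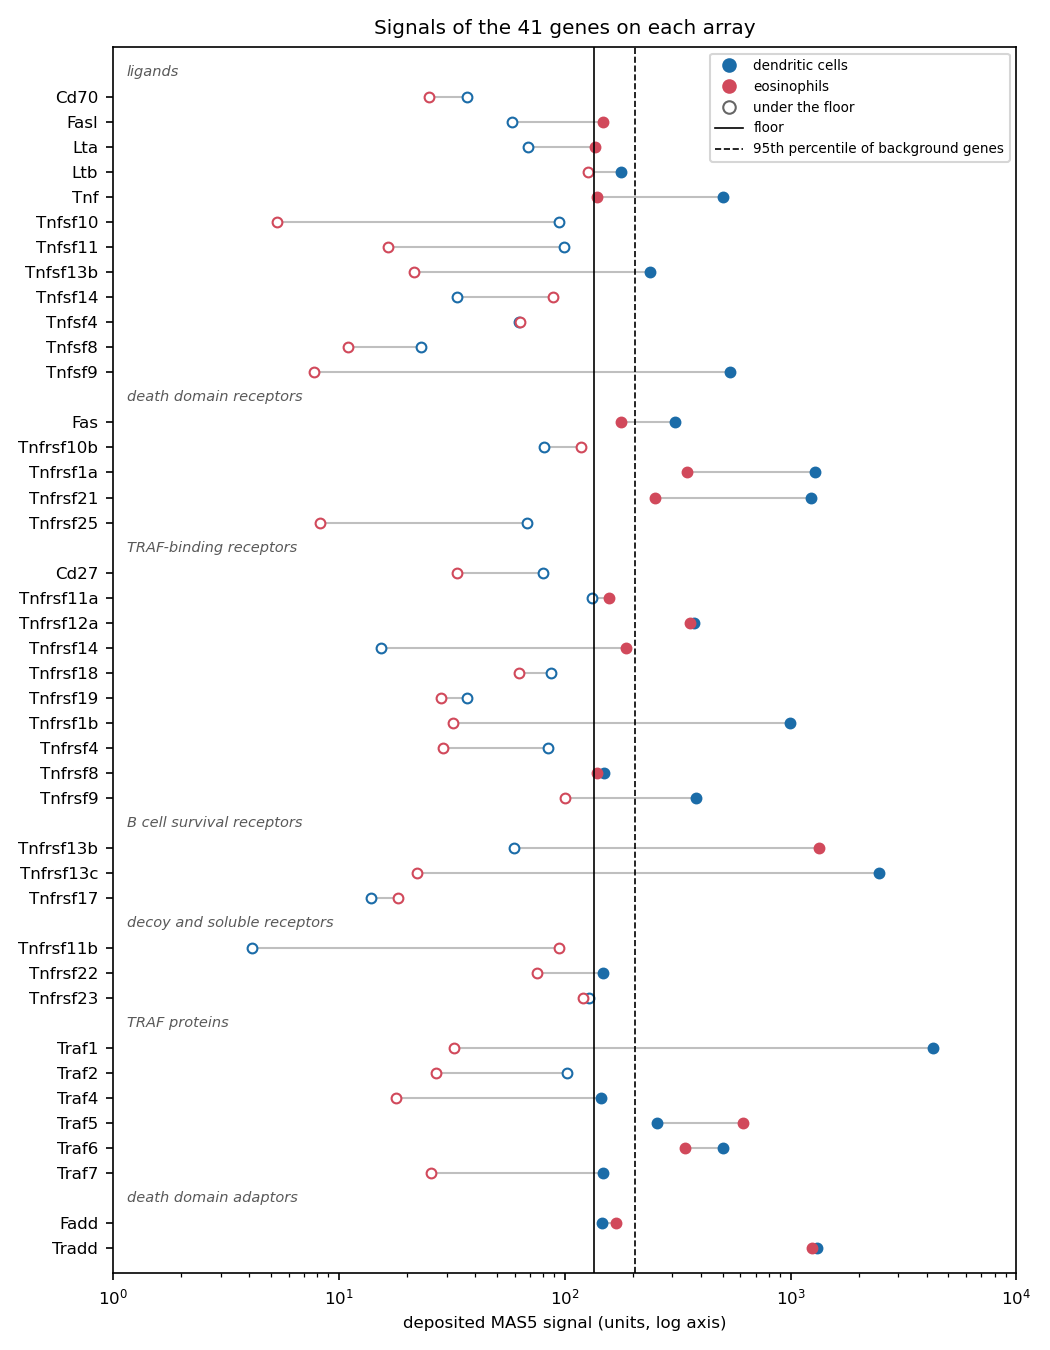
Deposited signal of each of the 41 genes (log axis, units) on the dendritic cell array (blue) and the eosinophil array (red), grouped by role, with open circles under the floor of 134.7 units and a dashed line at 205.6 units. Traf1, Tnfrsf13c, Tnfrsf1b and Tnfsf9 are far above the floor on the dendritic cell array and under it in eosinophils, and Tnfrsf13b is the reverse.

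The arrays carried the markers of their labels. On the dendritic cell array all 13 dendritic cell markers in the table were above the floor, and on the eosinophil array 7 of 9 eosinophil markers were, whereas the granule genes Prg2 (73.0 units) and Prg3 (3.54 units) were under it. On the eosinophil array 7 of the 13 dendritic cell markers were also above the floor: Itgax, which encodes CD11c (4846 units), Cd74 (606 units), Batf3 (417 units), Zbtb46 (399.99 units), H2-Eb1 (247 units), Dpp4 (239 units) and H2-Aa (155 units). The class II genes H2-Aa and H2-Eb1 were 218.9-fold and 167.6-fold brighter in dendritic cells, and Siglecf, the sorting marker, was above the floor in eosinophils alone (6977 units, at least 51.8-fold). Of 11 B cell and plasma cell markers, 3 were above the floor in dendritic cells and 2 in eosinophils, with summed signals of 2356 and 994 units. Of 10 T cell markers, 4 were above the floor on each array (summed signals 5157 and 1076 units). In dendritic cells these were Cd8a (3732 units, most of the sum), Cd3e (557 units), Thy1 (438 units) and Cd5 (139 units). Cd3d, Cd3g, Cd4 and Cd8b1 were under the floor on both arrays. NK and innate lymphoid cell markers gave 4 and 3 of 9, macrophage markers 6 and 5 of 12, neutrophil markers 1 and 4 of 9, mast cell markers 2 and 0 of 10, epithelial markers 4 and 4 of 11, and stromal and endothelial markers 2 and 5 of 10, in dendritic cells and eosinophils. Past 4-fold among these were Cd8a (26.5-fold), Cd14 (at least 19.6-fold), Irf4 (a bound of -3.17 on the log2 scale) and Vwf (at least 4.75-fold) in dendritic cells, and Adgre1 (36.9-fold), Mmp9 (at least 8.87-fold), Krt18 (at least 6.45-fold), Pecam1 (647 units against 55.8) and Cxcr2 (at least 4.23-fold) in eosinophils. Adgre1 was listed both as an eosinophil and as a macrophage marker and is counted in each.

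Among the ligands, 4-1BB ligand and TNF were brighter in dendritic cells, and no ligand reached 2-fold in eosinophils as processed here. Tnfsf9, the 4-1BB ligand that costimulates T cells, gave 542 units in dendritic cells against 7.77 in eosinophils, at least 4.02-fold apart and just past the 4-fold mark. Tnf, the founding cytokine of the family, gave 503 units in dendritic cells against 139 in eosinophils, 3.63-fold apart and just short of it. The eosinophil signal of Tnf lay within 205.6 units, so its ratio may also be a lower bound.

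Tnfsf13b, which encodes the B cell survival factor BAFF, gave 238 units in dendritic cells against 21.6 in eosinophils, at least 1.77-fold. Ltb, the membrane-bound lymphotoxin beta, gave 178 and 127 units, at least 1.32-fold brighter in dendritic cells. Fasl, the death ligand of Fas, gave 149 units in eosinophils against 58.7 in dendritic cells, and Lta, the soluble lymphotoxin, gave 137 and 68.5 units. These signals of Ltb, Fasl and Lta all lay within the background range, so no difference was detectable for these 3 ligands at this brightness. The remaining 6 of 12 ligands were under the floor on both arrays: Cd70, Tnfsf4 (OX40 ligand), Tnfsf8 (CD30 ligand), Tnfsf10 (TRAIL), Tnfsf11 (RANKL) and Tnfsf14 (LIGHT).

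Both TNF receptors were brighter in dendritic cells. Tnfrsf1a, the death domain receptor TNFR1 found on most cells, gave 1277 units in dendritic cells against 349 in eosinophils, 3.66-fold apart with both signals clear of the background range. Tnfrsf1b, which encodes TNFR2, a TRAF-binding receptor of leukocytes, gave 991 units in dendritic cells against 32.01 in eosinophils, at least 7.36-fold. Its other probe set gave 137 and 150.1 units, both in the background range and 0.14 apart on the log2 scale. The TNFR2 difference thus rests on 1 of its 2 probe sets.

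Of the other death domain receptors, Tnfrsf21 (DR6) passed 4-fold. It gave 1229 units in dendritic cells against 252 in eosinophils, 4.87-fold. Its second probe set gave 91.3 units in dendritic cells, under the floor, and 137 in eosinophils, in the background range. The 0.02 on the log2 scale from that probe set is a lower bound. The DR6 difference thus rests on 1 of its 2 probe sets. Fas, whose ligation can trigger apoptosis, gave 309 units in dendritic cells against 177 in eosinophils, 1.74-fold, and the eosinophil signal lay in the background range. Tnfrsf10b, the mouse TRAIL receptor, and Tnfrsf25 (DR3) were under the floor on both arrays.

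The receptors for BAFF separated the arrays in opposite directions. Tnfrsf13c, which encodes BAFF-R, the receptor through which BAFF keeps mature B cells alive, gave 2462 units in dendritic cells against 22.2 in eosinophils, at least 18.3-fold. Tnfrsf13b, which encodes TACI, the receptor that binds both BAFF and APRIL, gave 1337 units in eosinophils against 59.8 in dendritic cells, at least 9.92-fold. Tnfrsf17, the plasma cell receptor BCMA, read 13.9 units in dendritic cells and 18.3 in eosinophils, below the floor each time. Each of these 3 genes had 1 probe set, so no second reading was at hand.

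Because BAFF-R and TACI are best known from B cells, B cell markers are given beside them. Ms4a1, Cd79a, Cd79b, Blk, Pax5, Vpreb3 and Jchain were under the floor on both arrays. On the dendritic cell array, where Tnfrsf13c was bright, Cd79a gave 23.3 units, Cd79b 106 units and Pax5 86.6 units. The B cell and plasma cell markers above the floor there were Irf4 (1213 units), Sdc1 (525 units) and Derl3 (154 units), and Irf4 is also a transcription factor of dendritic cells. On the eosinophil array, where Tnfrsf13b was bright, Cd79a gave 84.0 units, and Fcer2a (251 units) and Derl3 (183 units) were above the floor. The part of other cell types in these differences was not tested.

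The 5′ flanks of both BAFF receptors are shown with that of Traf1, which passed 10-fold in dendritic cells, and 1 flank of Tnfrsf9, the only gene at least 2-fold apart, of those with a promoter entry, whose window held an NF-kappaB match. Sequences are from RefSeq (GRCm38.p6), run 5′ to 3′ on the gene's strand from 250 bases before to 50 bases after an annotated start, and capitals mark motif matches: the NF-kappaB consensus, AP-1 (TGANTCA), Sp1 (GGGCGG), ETS (CCGGAAGT) and the TATA box (TATAAA), searched on both strands. The windows are Tnfrsf13c, chr15:82224331-82224630 on the minus strand, Tnfrsf13b, chr11:61126505-61126804 on the plus strand, Traf1, chr2:34961723-34962022 on the minus strand, and Tnfrsf9, chr4:150927749-150928048 on the plus strand.
Tnfrsf13c: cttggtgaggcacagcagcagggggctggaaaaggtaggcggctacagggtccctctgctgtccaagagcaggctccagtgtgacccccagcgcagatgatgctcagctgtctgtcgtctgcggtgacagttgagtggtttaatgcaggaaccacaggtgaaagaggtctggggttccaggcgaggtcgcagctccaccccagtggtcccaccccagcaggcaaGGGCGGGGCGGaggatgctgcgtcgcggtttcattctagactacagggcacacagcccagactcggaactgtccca
Tnfrsf13b: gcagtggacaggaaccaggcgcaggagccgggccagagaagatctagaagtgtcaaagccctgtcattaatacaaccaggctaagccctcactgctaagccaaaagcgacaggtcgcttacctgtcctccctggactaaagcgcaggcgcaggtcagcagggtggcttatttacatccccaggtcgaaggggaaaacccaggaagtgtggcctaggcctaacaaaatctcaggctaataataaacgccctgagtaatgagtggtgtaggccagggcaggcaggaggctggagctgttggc
Traf1: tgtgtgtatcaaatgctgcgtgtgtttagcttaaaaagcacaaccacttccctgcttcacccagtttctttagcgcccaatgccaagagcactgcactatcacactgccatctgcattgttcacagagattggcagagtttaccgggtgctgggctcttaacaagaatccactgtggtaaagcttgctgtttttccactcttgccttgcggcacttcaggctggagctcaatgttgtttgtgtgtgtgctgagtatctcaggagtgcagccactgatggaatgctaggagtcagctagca
Tnfrsf9: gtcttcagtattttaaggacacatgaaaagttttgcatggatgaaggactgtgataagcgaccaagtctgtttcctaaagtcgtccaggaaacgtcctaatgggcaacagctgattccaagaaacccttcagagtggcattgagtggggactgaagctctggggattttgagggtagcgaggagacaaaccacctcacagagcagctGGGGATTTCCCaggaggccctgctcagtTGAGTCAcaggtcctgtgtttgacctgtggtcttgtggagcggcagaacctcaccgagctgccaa

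In these windows Tnfrsf13c held 2 overlapping Sp1 matches, and Tnfrsf13b and Traf1 held none of the 5 motifs. The Tnfrsf9 window held 2 overlapping NF-kappaB matches, the first starting 43 bases before the start site, and 1 AP-1 match. Tnfrsf9 has a second annotated start whose window held 1 Sp1 match. A promoter entry was found for 34 of the 41 genes, and Tnfsf9 had none. The NF-kappaB consensus was found for 1 of 7 genes at least 2-fold brighter in dendritic cells (Tnfrsf9) and for 3 of 34 in all (8.82%, with Ltb and Tnfrsf8), beside 4.51% of the 32851 windows of all genes. Sp1 matches were found for 19 of 34 (55.9%), beside 35.7% of all windows, AP-1 for 5 of 34 (14.7%), beside 7.81%, TATA for 5 of 34 (14.7%), beside 13.6%, and ETS for 1 of 34 (2.94%), beside 3.89%. The shares over the 34 genes count any window of a gene. By gene, all genes gave 5.14% for NF-kappaB, 38.2% for Sp1, 8.97% for AP-1, 15.7% for TATA and 4.31% for ETS. A match is a string of letters in the window and not evidence of binding.

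The TRAF-binding receptors other than TNFR2 were near or under the floor in most cases. Tnfrsf9, the costimulatory receptor 4-1BB, gave 380.4 units in dendritic cells against 100.2 in eosinophils, at least 2.82-fold, so 4-1BB and its ligand were both above the floor in dendritic cells and under it in eosinophils. The 2 other probe sets of Tnfrsf9 were under the floor on both arrays. Tnfrsf12a, the TWEAK receptor Fn14, gave 376 and 357 units, 1.05-fold, but its second probe set gave 613 units in dendritic cells against 116 in eosinophils, at least 4.55-fold. Tnfrsf14 (HVEM), a receptor for LIGHT, gave 186 units in eosinophils against 15.4 in dendritic cells, at least 1.38-fold, with the eosinophil signal in the background range.

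Tnfrsf11a (RANK) gave 132 units in dendritic cells against 157 in eosinophils, and Tnfrsf8 (CD30) gave 149 and 139 units. Cd27, Tnfrsf4 (OX40), Tnfrsf18 (GITR) and Tnfrsf19 were under the floor on both arrays. Of the decoy and soluble receptors, Tnfrsf22 gave 148 units in dendritic cells against 75.8 in eosinophils, and Tnfrsf23 and Tnfrsf11b (osteoprotegerin) were under the floor on both arrays. For Tnfrsf22 another probe set gave 192 units in eosinophils against 24.2 in dendritic cells, which is the opposite direction, again in the background range.

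**Figure D2:**
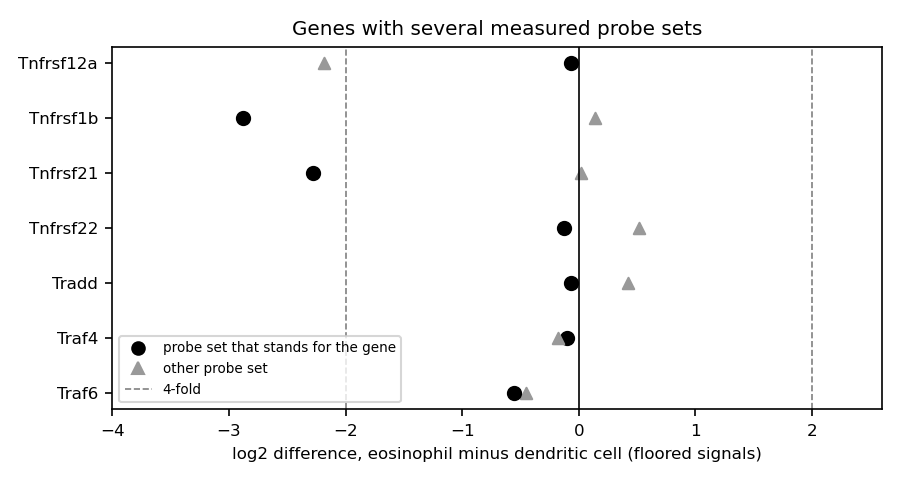
Log2 difference, eosinophil minus dendritic cell, of each measured probe set of the genes with at least 2 measured probe sets, with circles for the probe set that stands for the gene and triangles for the others. Tnfrsf12a, Tnfrsf1b and Tnfrsf21 each have 1 probe set past 4-fold in dendritic cells (dashed line at -2) and another near 0. For Tnfrsf1b and Tnfrsf21 the probe set near 0 did not rise above the background range on either array.

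Among the TRAF proteins, Traf1 was bright in dendritic cells and under the floor in eosinophils. Traf1, an adaptor that partners Traf2 at receptors such as TNFR2 and 4-1BB and is itself induced by NF-kappaB, gave 4291 units in dendritic cells against 32.2 in eosinophils, at least 31.8-fold from its single probe set. Traf5, an adaptor for costimulatory receptors, was the only TRAF brighter in eosinophils by 2-fold, with 616 units against 256 units in dendritic cells, 2.41-fold. On the scale of the hybridisation spike controls its difference fell from 1.27 to 0.23 on the log2 scale. Traf6, which also serves Toll-like and IL-1 receptors, gave 501 units in dendritic cells against 341 in eosinophils, 1.47-fold.

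Traf4 (144 and 18.0 units) and Traf7 (148 and 25.6 units) were just above the floor in dendritic cells and under it in eosinophils. Traf2 gave 102 and 27.0 units, under the floor on both arrays. The death domain adaptors differed little by the probe set read. Tradd, which TNFR1 recruits, gave 1308 units in dendritic cells against 1250.4 in eosinophils. Its other probe set gave 43.8 units in dendritic cells against 181 in eosinophils, at least 1.34-fold, with the eosinophil signal in the background range. Fadd, the adaptor of Fas, gave 146 and 169.7 units, both in the background range, so no difference was detectable for it.

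**Figure D3:**
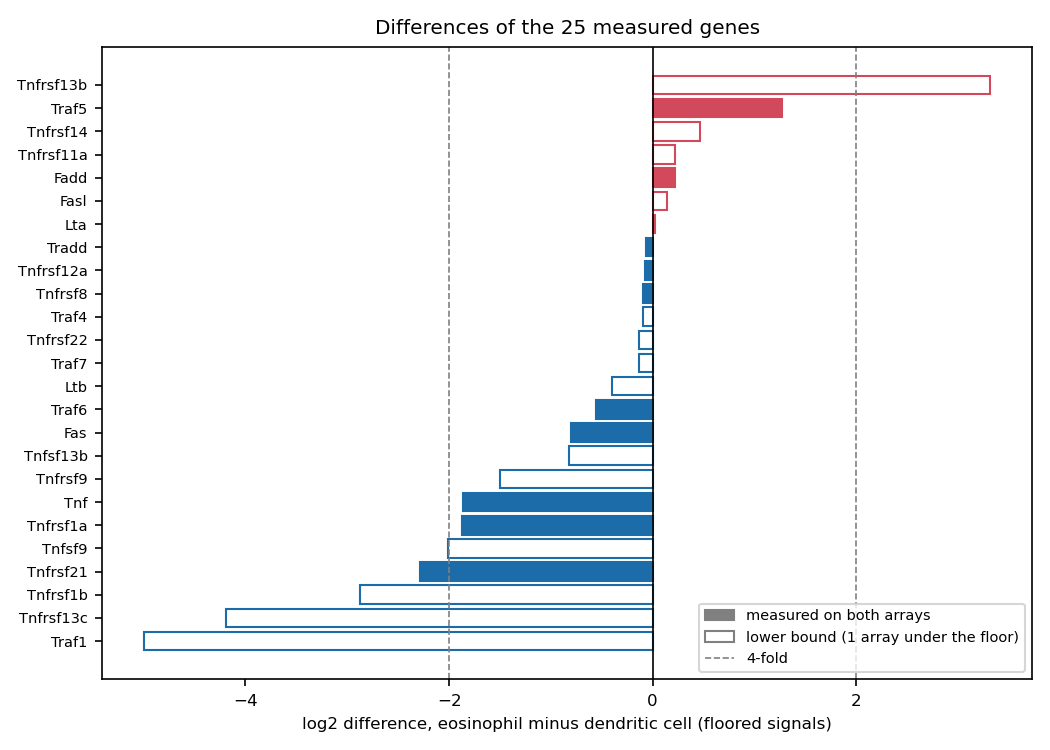
Log2 difference, eosinophil minus dendritic cell, of the 25 measured genes, with filled bars for genes above the floor on both arrays, open bars for lower bounds and dashed lines at 4-fold. The bars run from -4.99 for Traf1 to 3.31 for Tnfrsf13b, with 18 below 0 and 7 above.

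Set as ligand and receptor pairs, 19 known pairs had both genes in the table. On the dendritic cell array both genes were above the floor for 5 pairs: Tnf with Tnfrsf1a and with Tnfrsf1b, Ltb with Ltbr, Tnfsf9 with Tnfrsf9, and Tnfsf13b with Tnfrsf13c. The Ltb signal there (178 units) lay in the background range. On the eosinophil array both genes were above the floor for 3 pairs: Tnf with Tnfrsf1a, Lta with Tnfrsf1a, and Fasl with Fas, each with its ligand in the background range. The receptor Fas (177 units) lay in that range too. Across the arrays, a ligand in dendritic cells met a receptor in eosinophils for 3 pairs: Tnf with Tnfrsf1a, Ltb (again in the background range) with Ltbr, and Tnfsf13b with Tnfrsf13b. In the other direction, a ligand in eosinophils met a receptor in dendritic cells for 5 pairs: Tnf and Lta, each with Tnfrsf1a and Tnfrsf1b, and Fasl with Fas, where all 3 ligand signals lay in the background range. For 4 pairs neither gene was above the floor on either array. Of all genes, 51.3% were above the floor on the dendritic cell array and 56.7% on the eosinophil array. The share of other gene pairs with both genes above it was not computed, so these counts are no result about matching.

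Superfamily genes outside the naming rule were mostly dark. Cd40, the receptor through which T cells license dendritic cells, gave 693 units in dendritic cells against 50.5 in eosinophils, at least 5.15-fold, and its other probe set differed by -0.68 (log2). Ltbr, the lymphotoxin beta receptor, gave 273 and 209.7 units, 1.30-fold. Cd40lg, Ngfr, Eda, Edar and Edaradd were under the floor on both arrays.

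The signalling partners shared by these receptors were above the floor nearly throughout. Of 21 in the table all were measured, and none was 4-fold apart by the probe set read. For Map3k14 that probe set gave 186 units in dendritic cells and 156 in eosinophils, both in the background range. Its other probe set was at -2.37 on the log2 scale, past 4-fold in dendritic cells. At 2-fold, 4 partners passed toward eosinophils and 3 toward dendritic cells, and the median was 0.49. The 2-fold counts are near the shares of all measured genes, 19.0% and 15.5%. On the spike control scale the median turned to -0.55, with 3 partners past 4-fold and 8 past 2-fold in dendritic cells and none past 2-fold in eosinophils. The 7 that passed 2-fold are named after their values were seen. Xiap, an inhibitor of caspases (1328 units in eosinophils, 351 in dendritic cells, 3.79-fold, probe sets from 0.42 to 1.92 on the log2 scale), Casp8, the caspase that Fadd recruits (2.88-fold), Ikbkg (2.33-fold) and Tab2 (2.29-fold) were brighter in eosinophils. Probe sets of Ikbkg ran from -0.96 to 1.22. Map3k7, the kinase TAK1, Sharpin and Ube2v1, which act in ubiquitin signalling to NF-kappaB, were each 2.18-fold brighter in dendritic cells, with another probe set of Map3k7 at 0.49.

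Of 17 inhibitors and regulators, 14 were measured, 1 was 4-fold apart, beside 5.35% of all measured genes in each direction, and the median was -0.25. That gene was Tnip1, a partner of the NF-kappaB inhibitor A20, at 2286 units in dendritic cells against 471 in eosinophils, 4.86-fold from its single probe set. Tnfaip3, which encodes A20 itself, was under the floor on both arrays. At 2-fold, 4 genes were brighter in dendritic cells and 1 in eosinophils, named after their values were seen: Tnip1, the TNF-shedding protease Adam17 (2.74-fold, with another probe set at 0.98), Zfp36, which destabilises Tnf mRNA (2.64-fold), and Trafd1 (2.19-fold) in dendritic cells, and the ubiquitin ligase Itch (2.87-fold) in eosinophils. Of all measured genes 15.5% and 19.0% passed 2-fold in these directions. On the spike control scale 4 genes of the list were past 4-fold and 8 past 2-fold in dendritic cells, and none past 2-fold in eosinophils. The median of the list was -1.17 there. All measured genes gave a median of -0.63 on that scale, with 14.2% past 4-fold in dendritic cells. Of 9 further genes named as TNF-induced or related, 5 were measured and none was 4-fold apart as processed here. Their median was -0.09 and changed sign with the scaling, between -0.86 on the spike control scale and 0.08 after quantile normalization. Tnfaip1, named after its value was seen, was 3.37-fold brighter in dendritic cells, with probe sets from -2.74 to -1.59 on the log2 scale. In dendritic cells 1 gene of this list was past 4-fold with centring on the median, on the spike control scale and with the mean of all probe sets. Of all measured genes 7.20%, 14.2% and 4.15% were past it in these settings. In none of these lists did a gene reach 4-fold in eosinophils as processed here. In each of 3 alternatives 1 signalling partner did, not the same gene each time: the housekeeping scale, the floor at the 25th percentile and no floor. The shares of all measured genes past 4-fold in eosinophils were 6.14%, 7.54% and 10.1% in these 3.

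**Figure D4:**
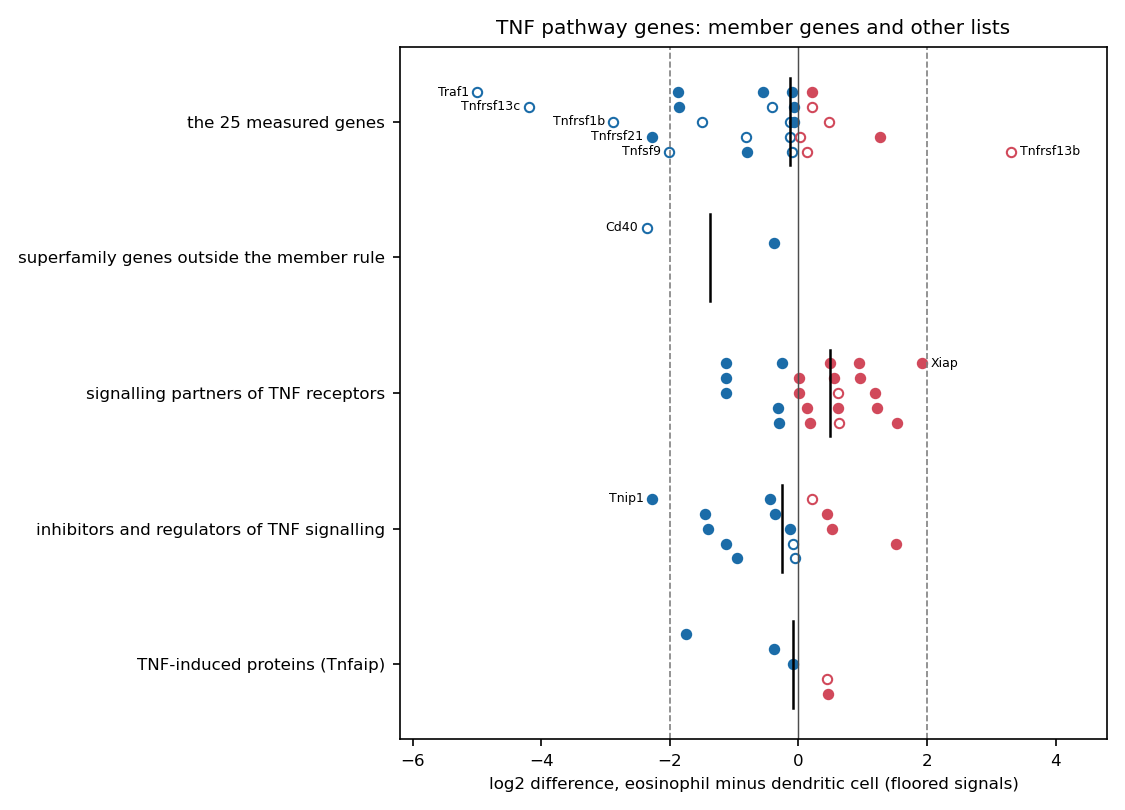
Log2 difference, eosinophil minus dendritic cell, of each measured gene in the family and in 4 further lists, with open circles for lower bounds, black bars at the medians and dashed lines at 4-fold. Tnfrsf13b is the single gene past 4-fold in eosinophils, and Cd40 and Tnip1 are the genes of the further lists past 4-fold in dendritic cells.

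Directions within the family were compared under 5 other scalings of the arrays. Of the 25 genes, 20 kept their direction under every scaling that left them measured. Among these 20, Lta was measured under only 1 of the 5 scalings, Fasl under 3 and Tnfrsf14 under 4. The other 5 (Fadd, Tnfrsf11a, Tnfrsf12a, Tnfrsf8 and Tradd) changed direction. As reported these 5 differed by at most 0.22 on the log2 scale, whereas on the spike control scale Tnfrsf12a and Tradd both reached -1.11. Traf1, Tnfrsf13c and Tnfrsf13b stayed past 4-fold under all 11 alternatives tried. Each has 1 probe set, so the other probe set rules could not change its value. Symbols as printed left these values unchanged too, so only the scalings and floors bear on these genes.

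**Figure D5:**
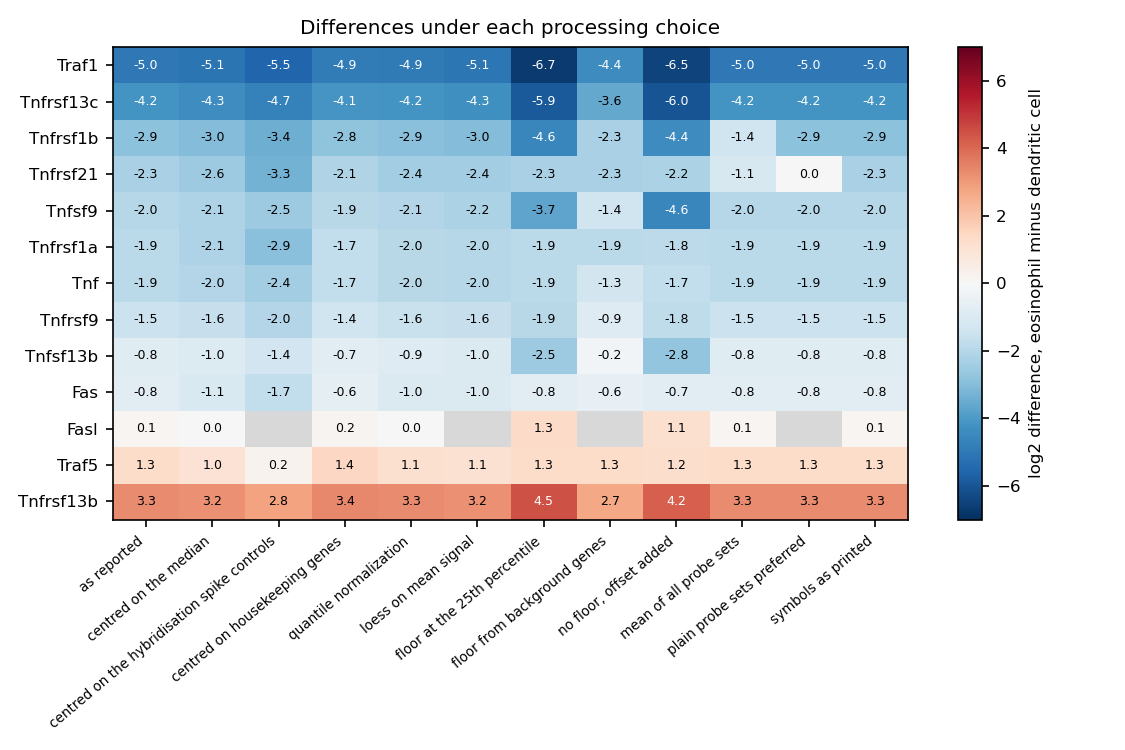
Log2 difference, eosinophil minus dendritic cell, of the 13 named genes (rows) as reported and under each of 11 other processing choices (columns), with grey where the gene was under the floor on both arrays. Traf1 runs from -6.70 to -4.38, Tnfrsf13b from 2.70 to 4.48, and Tnfrsf21 is near 0 where plain probe sets are preferred.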

How the data were processed

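The deposited values are MAS5 signal intensities (version 5.0, per the submitters' processing notes), 1 per probe set, which the authors deposited on a linear scale. Trimming 2% from each end left mean signals of 500.3 (dendritic cells) and 500.2 units (eosinophils), so both share a global scale. That scaling fixes the average signal, so a difference in total RNA per cell is not seen. Detection calls, scanner files and a genome build were not used here, and depth has no meaning for arrays: their number, 1 per population, limits the precision.

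Of 22690 probe sets (64 array controls), 20393 had 1 gene in the platform annotation, 691 had several and 1606 were not listed. Annotated symbols can be old, and RefSeq (GRCm38.p6) supplied current ones by Entrez identifier for 20364 single-gene probe sets. Each gene was read from its brightest probe set by mean log2 signal. Signals were raised to the floor (134.7 units) before log2. The pooled SD between probe sets of a gene was 0.73 on the log2 scale (1766 genes), which is not biological error. Groups came from the labelled cell type. Genes at least 4-fold apart were given with all probe sets, those at least 2-fold apart and Traf1, Tnf, Tnfsf13b, Tnfrsf1a, Tnfrsf1b, Fas and Fasl with both signals, and genes under the floor by name (Tnfsf13 was not analysed here). Of other lists, up to 4 genes at 4-fold or more and every superfamily gene outside the naming rule were named. The members, lists and rules were chosen with earlier results of these data known. Scripts used Python 3.11.15, pandas 2.3.3, numpy 2.4.6, scipy 1.17.1 and statsmodels 0.14.6, and were tested on simulated data. Protein sequences were not used here. Alternatives were centring on the median, on housekeeping genes or on 18 spike control probe sets, quantile normalization, loess (span 0.3), floors at the 25th percentile (41.4 units) or at 205.6 units, no floor with 16 units added, other probe set rules, symbols as printed, and thresholds of 2-fold and 10-fold.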

Additional observations from a re-analysis of the deposited data

How the results depend on the processing

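With 1 array per population, no alternative can show how far the values would vary between animals or sorts. The 5 genes past 4-fold in dendritic cells became 8 on the spike control scale (Tnf, Tnfrsf1a and Tnfrsf9 joined) and 8 with no floor. With the mean of all probe sets they became 3, which lost Tnfrsf1b and Tnfrsf21. These counts were 30.8%, 19.5% and 12% of the family's measured genes, beside 14.2%, 7.53% and 4.15% of all measured genes. The 1 gene past 4-fold in eosinophils became 2 with the floor at the 25th percentile and 3 with no floor. Those were 5.41% and 7.32% of the family's measured genes, below the 7.54% and 10.1% of all measured genes. Thresholds of 2-fold and 10-fold gave 8 and 2 genes for dendritic cells, and 2 and 0 for eosinophils. The share of all genes at 10-fold was not computed. The median of -0.14 became -1.02 on the spike control scale, which shifts the arrays by 1.04 on the log2 scale, and -0.89 with the floor from background genes, where 15 genes were measured. In all 11 alternatives the median of the measured genes lay below that of all measured genes, by 0.29 to 1.02 on the log2 scale, and the share past 4-fold in dendritic cells was above that of all genes. Among the 13 genes followed through every alternative, the 1 change of sign was Tnfrsf21, at 0.021 with plain probe sets preferred. There its other probe set is read, which did not rise above the background range on either array, and Tnfrsf12a is past 4-fold instead. Of the other measured genes, 5 changed direction with the scaling, as given above. With the floor from background genes, Tnfsf9 fell short of 4-fold (-1.40 on the log2 scale), as it did on the housekeeping scale (-1.93), and 4 genes were past it in each. No paired analysis was possible because each population has 1 array.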

Other observations

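Several members lie side by side in the genome. In the gene order of RefSeq (GRCm38.p6), Ltb, Tnf and Lta are consecutive protein-coding genes on chromosome 17. There Tnf was brighter in dendritic cells by 3.63-fold, its eosinophil signal lying in the background range. Ltb (178 units in dendritic cells) and Lta (137 units in eosinophils) did not rise above that range on either array, so no difference was detectable for them. Also on chromosome 17, Tnfsf9, Cd70 and Tnfsf14 are consecutive, and Tnfsf9 alone was above the floor (542 units in dendritic cells). On chromosome 4, Tnfrsf1b and Tnfrsf8 are neighbours, at differences of -2.88 and -0.099 on the log2 scale. Whether neighbouring members differ more or less than other genes was not tested.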
